A study of Mus musculus with 20 samples.

Results

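The Nrf2 pathway and quinone reductases were followed through 8 genes in the hearts of young, aged and vitamin E-fed mice. The genes, Nfe2l2, Keap1, Hmox1, Nqo1, Gclm, Gclc, Gsr and Cryz, were chosen by symbol, with earlier results of these data known. They are 8 of the 8251 genes named by a single symbol, and were read by 9 of the 12488 probe sets of a murine Affymetrix oligonucleotide array, each assigned to a single gene by the platform annotation. Poly(A) RNA from 20 hearts of male B6/C3H F1 hybrid mice, housed singly, was hybridised with 1 array per animal. The 4 groups of 5 were young controls aged 5 months, old controls aged 30 months, old mice aged 30 months fed 1000 mg/kg alpha-tocopherol, and old mice aged 30 months fed 500 mg/kg each of alpha- and gamma-tocopherol. The supplements started at 15 months of age, and both control groups ate the control diet. Old controls 1 and 4 are labelled as B6/C3H hybrids without the F1 of the other 18 mice.

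Nrf2, the product of Nfe2l2, is a transcription factor that is held in the cytoplasm by Keap1 and degraded, and that reaches the nucleus when oxidants or electrophiles modify Keap1. There it pairs with small Maf proteins on antioxidant response elements and switches on genes for glutathione synthesis, heme breakdown and quinone reduction. In the heart this program is known for limiting oxidative damage after ischemia and during pressure overload. Alpha- and gamma-tocopherol are the main dietary forms of vitamin E, a lipid-soluble antioxidant.

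The DNA in front of these genes is shown first because the antioxidant response element is what ties the pathway's targets to Nrf2. Promoter windows of 300 bases, 250 before and 50 after an annotated start, were taken from RefSeq on GRCm38.p6. A window was found for 5 of the 8 genes, Nfe2l2, Keap1, Nqo1, Gclm and Cryz, with 6 windows in all because Cryz has 2. The core element was searched on both strands as TGACNNNGC, where N is any base. It occurred in 4071 of all 32851 windows, or 12.4%, and in 2 of the 6 windows of these genes, those of Nfe2l2 and Gclm. The windows of Nfe2l2 and Gclm are printed because they hold a match, and the first window of Cryz because that gene rose with age and its windows hold none. Each runs 5′ to 3′ on the gene's own strand, with the match in capitals. The Nfe2l2 window is chr2:75704614-75704913 on the minus strand, with its match 240 to 232 bases before the start. The Gclm window is chr3:122245307-122245606 on the plus strand, with its match on the opposite strand, as TGACGGTGC, 134 to 126 bases before the start. The Cryz window is chr3:154596461-154596760 on the plus strand.
Nfe2l2: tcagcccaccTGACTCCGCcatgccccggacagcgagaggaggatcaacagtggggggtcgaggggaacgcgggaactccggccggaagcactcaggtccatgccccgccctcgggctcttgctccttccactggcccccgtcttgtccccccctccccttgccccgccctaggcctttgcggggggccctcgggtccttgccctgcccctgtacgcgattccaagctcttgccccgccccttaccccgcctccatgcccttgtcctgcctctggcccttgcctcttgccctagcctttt
Gclm: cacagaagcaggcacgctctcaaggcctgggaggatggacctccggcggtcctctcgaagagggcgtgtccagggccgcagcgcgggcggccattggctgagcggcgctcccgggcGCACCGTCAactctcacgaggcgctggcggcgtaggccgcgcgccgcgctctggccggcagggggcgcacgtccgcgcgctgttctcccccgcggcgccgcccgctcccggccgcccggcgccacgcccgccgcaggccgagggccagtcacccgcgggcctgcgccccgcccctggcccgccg
Cryz: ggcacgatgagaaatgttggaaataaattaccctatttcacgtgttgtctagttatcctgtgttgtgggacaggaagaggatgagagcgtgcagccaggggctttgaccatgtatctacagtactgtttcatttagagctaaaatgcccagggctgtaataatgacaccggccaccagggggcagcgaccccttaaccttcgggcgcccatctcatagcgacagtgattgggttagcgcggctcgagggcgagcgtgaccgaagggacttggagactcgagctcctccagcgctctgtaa
A match is a run of letters and was not measured as a site of Nrf2 binding. Bases outside these windows were not searched, and Hmox1, Gclc and Gsr had no window. A window without a match, as for Keap1, Nqo1 and Cryz, therefore does not show that the gene lacks the element.

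All levels are given as log2(intensity + 58), a scale on which fold changes of dim genes are understated. Of the 9 probe sets, 8 probe sets of 7 genes passed the filter that left out the dimmest 40% of probe sets by their mean over all 20 arrays. Keap1 did not pass. Differences were tested with limma over all 7453 probe sets that passed, and a probe set was called when its Benjamini-Hochberg adjusted p was below 0.05. In bulk hearts, fewer cells of a type and less RNA per cell cannot be told apart.

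The arrays differed in ways that bear on these results. The bacterial hybridization controls lay at 13.32 to 13.78 on the alpha-tocopherol arrays and at 12.55 to 12.92 on the old controls, a difference of 0.852 (exact permutation p = 0.0079, 0.032 after adjustment over 16 tests). The 18S ribosomal RNA probe sets lay at 12.21 to 12.74 and 10.16 to 11.23, a difference of 1.656 with the same p. With both tocopherols the differences from old controls on these measures were 0.284 and 0.52, with exact p of 0.16 and 0.26. The differences of both tocopherols from alpha-tocopherol were -0.568 and -1.136, each with exact permutation p = 0.0079 (0.032 after adjustment). All 9 cardiomyocyte markers on the array passed the filter, and none of the 6 T cell markers did. Young control 3 stood apart in the summed T cell markers, at 14.53 on the log2 scale against 9.04 to 10.9 on the other 19 arrays. Old control 3 stood apart in the 3′ to 5′ difference of Gapdh, at 1.21 against -0.17 to 0.19.

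**Figure D1:**
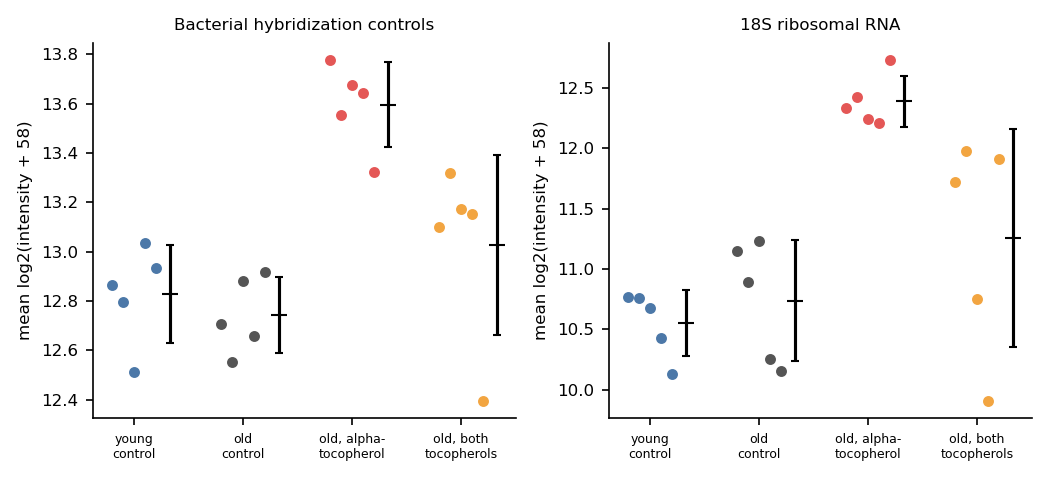
Mean log2(intensity + 58) of the bacterial hybridization controls (left) and of the 18S ribosomal RNA probe sets (right) on each array, by group. Bars are the mean and SD of 5 arrays, and all 5 alpha-tocopherol arrays lie above all 5 old controls on both measures.

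With age, 1 of the 7 tested genes was called, the quinone reductase Cryz, which rose. Among all probe sets, 368 of 7453, or 4.94%, were called in that comparison. With alpha-tocopherol, 1 of 7 was called, Nfe2l2, which fell, beside 21.7% of all probe sets, so a single call among 7 genes is near the background. With both tocopherols none of the 7 was called against old controls, beside 6.43% of all probe sets, and Hmox1 alone had an unadjusted p below 0.05 in limma. None was called between the 2 supplements, beside 0.564% of all probe sets, and Nfe2l2 alone had an unadjusted p below 0.05. The median log2 difference of the 7 genes was 0.132 with age, 0.138 with alpha-tocopherol and 0.25 with both tocopherols. Over all tested probe sets these medians were 0.014, -0.019 and -0.009. The signs were mixed, with 4 genes positive and 3 negative with age and with alpha-tocopherol, and 5 and 2 with both tocopherols. Regardless of sign, the median size was 0.207, 0.342 and 0.25, beside 0.179, 0.287 and 0.211 over all tested probe sets. The supplement comparisons share the old controls with each other and with the age comparison, so their values are given side by side.

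**Figure D2:**
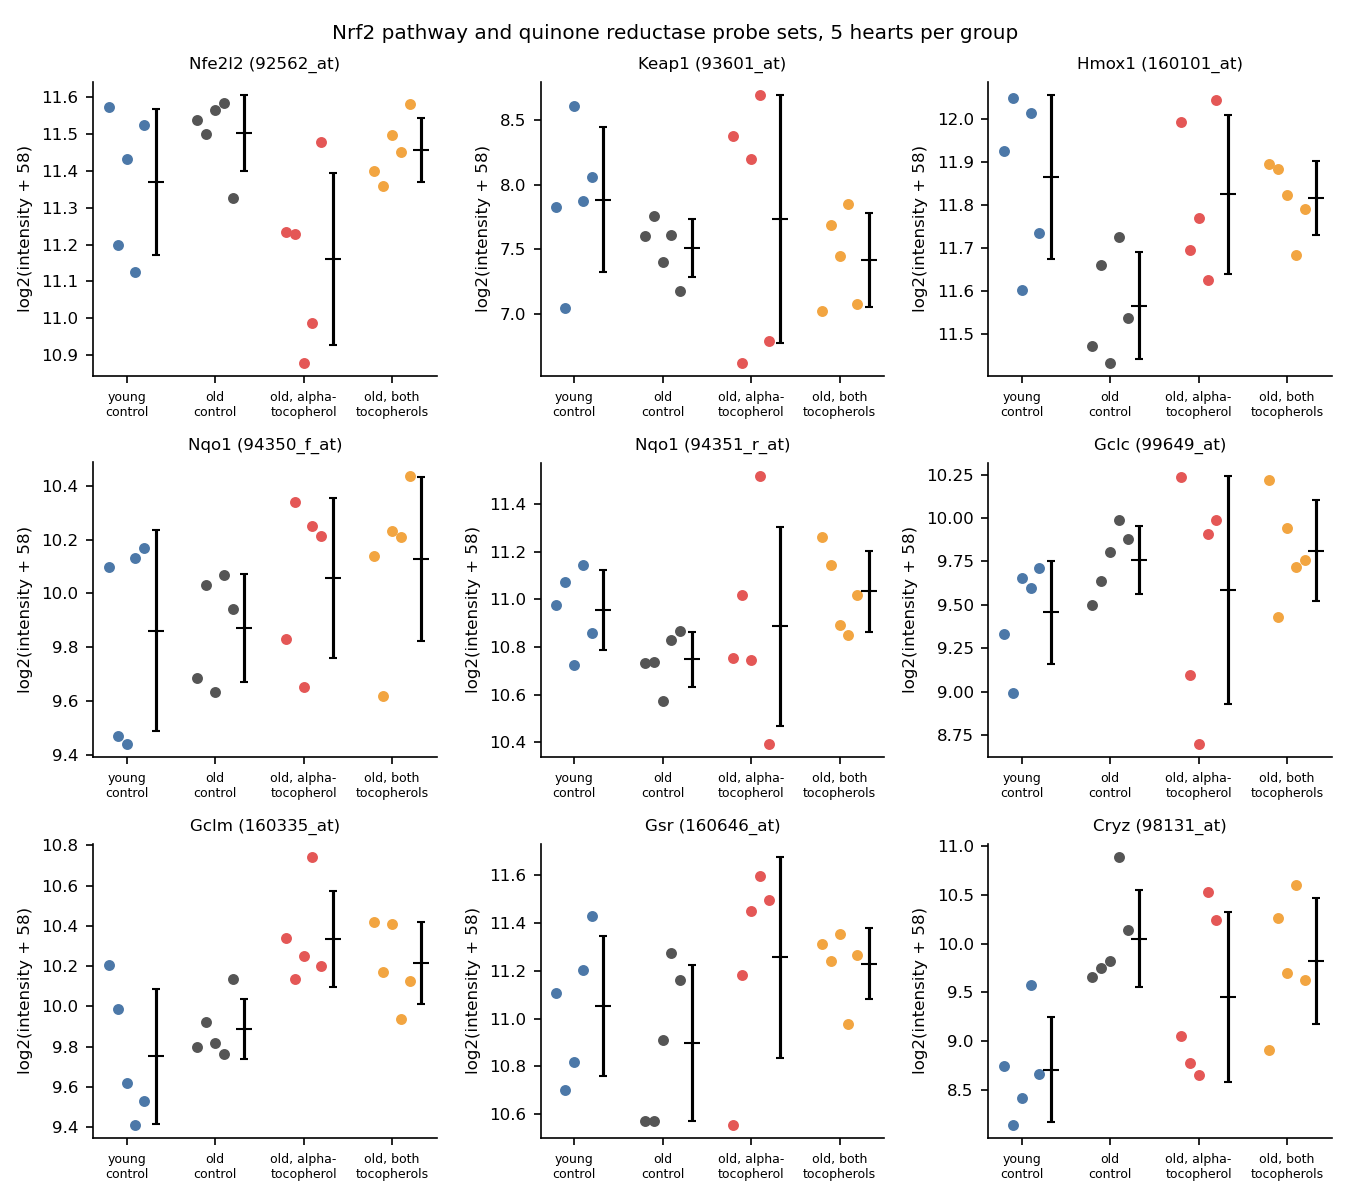
Log2(intensity + 58) of the 9 probe sets on each of 20 arrays, with each group's mean and SD (n = 5) beside its points; each panel has its own vertical range. The old controls of Cryz lie at 9.66 to 10.89, all above the young controls at 8.15 to 9.58.

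Nfe2l2, which encodes Nrf2 itself, was bright, at the 83.1 percentile of brightness. The 5 young controls had 11.57, 11.20, 11.43, 11.13 and 11.52. The old controls had 11.54, 11.50, 11.57, 11.58 and 11.33, within the young range or just above it. The mice fed alpha-tocopherol had 11.23, 11.23, 10.88, 10.99 and 11.48, so 4 of 5 lay below the lowest old control. The mice fed both tocopherols had 11.40, 11.36, 11.50, 11.45 and 11.58, the tightest group. Nfe2l2 fell by 0.34 ± 0.12 (SE) on the log2 scale with alpha-tocopherol (limma adjusted p = 0.0371, 95% interval -0.58 to -0.10). The difference with both tocopherols was -0.05 ± 0.12 (limma adjusted p = 0.853). The test of both against alpha-tocopherol gave 0.30 ± 0.12 (limma adjusted p = 0.209), so the supplements were not shown to differ. With the hybridization controls as a covariate that value was 0.12 ± 0.15, and with 18S 0.35 ± 0.15 (limma adjusted p = 0.806 and 0.59). With age the difference was 0.13 ± 0.12 (limma adjusted p = 0.623). In order of mean level, the groups ran old controls 11.50, both tocopherols 11.46, young controls 11.37 and alpha-tocopherol 11.16, and no neighbours in that order differed by a call.

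The fall of Nfe2l2 was fitted again with each of the array controls described above, and the call was lost in both fits. With the hybridization controls as a covariate it was -0.07 ± 0.19 (limma adjusted p = 0.89), and with 18S as a covariate -0.43 ± 0.18 (limma adjusted p = 0.221). Both covariates separate the alpha-tocopherol arrays from the old controls, and their part in the result was not tested beyond these fits. The call was lost without old control 1, 2, 3 or 4 or alpha-tocopherol animal 3 or 4, taken singly, with differences of -0.34 to -0.27 and limma adjusted p of 0.0612 to 0.109. Without old controls 1 and 4 together it was -0.30 ± 0.14 (limma adjusted p = 0.151). In the comparison of alpha-tocopherol with old controls, 21.7% of all probe sets were called. Among cell type markers, 5 of 9 tested cardiomyocyte markers were called higher and 1 lower, and 5 of 9 macrophage markers lower. Of 8 fibroblast markers, 5 were called lower and 1 higher. The summed macrophage markers lay at 14.4 to 15.15 with alpha-tocopherol and 15.08 to 15.37 in old controls, and the cardiomyocyte sums at 19.55 to 19.85 and 19.28 to 19.55. The fibroblast sums lay at 15.79 to 16.42 and 16.13 to 16.24. Of the other lists, 2 of 8 endothelial and 2 of 4 hepatocyte markers were called lower, and 3 of 5 skeletal muscle markers higher and 1 lower. The part of these markers in the result was not tested.

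Keap1, the adaptor that presents Nrf2 for degradation, was dim, at the 21.1 percentile. Its young controls lay at 7.05 to 8.61, its old controls at 7.17 to 7.76, the alpha-tocopherol animals at 6.62 to 8.69 and those fed both tocopherols at 7.02 to 7.85. All 4 ranges overlap, and the alpha-tocopherol SD of 0.958 was the widest of any group among the 8 genes. With no filter on dim probe sets, the difference was -0.37 ± 0.37 with age, 0.23 ± 0.37 with alpha-tocopherol and -0.09 ± 0.37 with both tocopherols (limma adjusted p = 0.779, 0.723 and 0.926).

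Hmox1 encodes heme oxygenase 1, the inducible enzyme that opens the heme ring. The young controls had 11.93, 12.05, 11.60, 12.01 and 11.74. The old controls had 11.47, 11.66, 11.43, 11.73 and 11.54, lower on average but overlapping the young range. The alpha-tocopherol animals had 11.99, 11.70, 11.77, 11.63 and 12.04, and those fed both tocopherols had 11.89, 11.88, 11.82, 11.69 and 11.79. Of these 10 supplemented animals, 2 fed alpha-tocopherol and 1 fed both tocopherols lay below the highest old control. The difference with age was -0.30 ± 0.11 (limma adjusted p = 0.114). It was 0.26 ± 0.11 with alpha-tocopherol and 0.25 ± 0.11 with both tocopherols (limma adjusted p = 0.0835 and 0.163), and -0.01 between the supplements (limma adjusted p = 0.979). None of these was called. The age difference was called without young control 3, the array with the high T cell markers, at -0.36 (limma adjusted p = 0.0494). With quantile normalization the alpha-tocopherol difference was 0.31 and was called (limma adjusted p = 0.0412), while that of Nfe2l2 was -0.30 and was not (limma adjusted p = 0.0648). Hmox1 is also made by macrophages, whose markers are given with Nfe2l2.

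Nqo1 encodes the quinone oxidoreductase that reduces quinones with 2 electrons in a single step. It was read by 2 probe sets, 1 marked by its suffix as matching a sequence family (94350_f_at) and 1 designed under relaxed rules (94351_r_at). On the brighter, 94351_r_at, the young controls lay at 10.72 to 11.15, the old controls at 10.57 to 10.87, the alpha-tocopherol animals at 10.39 to 11.52 and those fed both tocopherols at 10.85 to 11.26. Its difference was -0.21 ± 0.15 with age, 0.14 ± 0.15 with alpha-tocopherol and 0.29 ± 0.15 with both tocopherols (limma adjusted p = 0.547, 0.55 and 0.28). On 94350_f_at the corresponding differences were 0.01, 0.18 and 0.25, each with an SE of 0.19. Neither probe set was called with age. The age difference of 94350_f_at was small beside its SE and ran from -0.09 to 0.09 when single arrays were left out. With each supplement both probe sets gave positive values as reported. With alpha-tocopherol, 94351_r_at ran from -0.02 to 0.26 when single arrays were left out. With the hybridization covariate that value was -0.08 ± 0.27 (limma adjusted p = 0.916).

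Cryz encodes zeta-crystallin, an NADPH-dependent quinone reductase that passes electrons singly. It lay at the 53.3 percentile of brightness. The young mean of 8.712 was just under the filter threshold of 8.716, so Cryz passed the filter through the higher levels of the old groups. The young controls had 8.75, 8.15, 8.42, 9.58 and 8.67. The old controls had 9.66, 9.75, 9.82, 10.89 and 10.13, so the lowest old heart lay above the highest young heart. The alpha-tocopherol animals had 9.06, 8.78, 8.66, 10.52 and 10.24, spanning both control groups, with an SD of 0.866. The animals fed both tocopherols had 8.91, 10.26, 9.70, 10.59 and 9.63, with 4 of 5 above every young control. Cryz rose with age by 1.34 ± 0.37 on the log2 scale, a ratio of 2.53 (limma adjusted p = 0.0391, 95% interval 0.56 to 2.11). Against old controls the difference was -0.60 ± 0.37 with alpha-tocopherol and -0.23 ± 0.37 with both tocopherols (limma adjusted p = 0.26 and 0.759). With the hybridization covariate these values were -0.84 ± 0.66 and -0.31 ± 0.42 (limma adjusted p = 0.54 and 0.74). With the 18S covariate they were 0.11 ± 0.56 and -0.01 ± 0.38 (limma adjusted p = 0.943 and 0.993), so the sign with alpha-tocopherol was not settled. Against young controls, without a covariate, the differences were 0.74 ± 0.37 and 1.11 ± 0.37 (limma adjusted p = 0.189 and 0.0863), where 15.6% and 5.55% of all probe sets were called. The 1166 probe sets behind the first share became 189 with the hybridization covariate and 52 with the 18S covariate. In order of mean level the groups ran old controls 10.05, both tocopherols 9.82, alpha-tocopherol 9.45 and young controls 8.71, and no neighbours in that order differed by a call. Between the supplements the difference was 0.37 ± 0.37 as reported and -0.12 ± 0.47 with the 18S covariate (limma adjusted p = 0.67 and 0.974).

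The Cryz call with age stood close to the threshold, although the size of the difference varied little. Leaving out young control 1, 2, 3 or 5 or old control 2, 3, 4 or 5, taken singly, ended the call, with differences of 1.13 to 1.41 and limma adjusted p of 0.0515 to 0.116. Without old controls 1 and 4, whose strain label differs, it was 1.19 ± 0.43 (limma adjusted p = 0.178). Without young control 3 and old control 3 it was 1.32 ± 0.43 (limma adjusted p = 0.09). With no filter on dim probe sets it was 1.34 ± 0.37 and was not called (limma adjusted p = 0.0607). With age, 2 of 8 endothelial markers were called higher and 1 of 3 adipocyte markers lower, beside 4.94% of all probe sets. The endothelial sums lay at 14.45 to 14.83 in young and 14.75 to 15.01 in old controls, and the adipocyte sums at 13.03 to 13.52 and 12.24 to 12.42. Their part in the Cryz difference was not tested. The hybridization and 18S measures differed by -0.085 and 0.181 between the control groups (exact permutation p = 0.47 and 0.51). With them as covariates the Cryz difference was 1.36 ± 0.38 and 1.42 ± 0.36 (limma adjusted p = 0.0447 and 0.0233). The difference of both tocopherols from young controls was called without young control 4 (1.32, limma adjusted p = 0.049) or without animal 1 fed both tocopherols (1.33, limma adjusted p = 0.048).

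**Figure D3:**
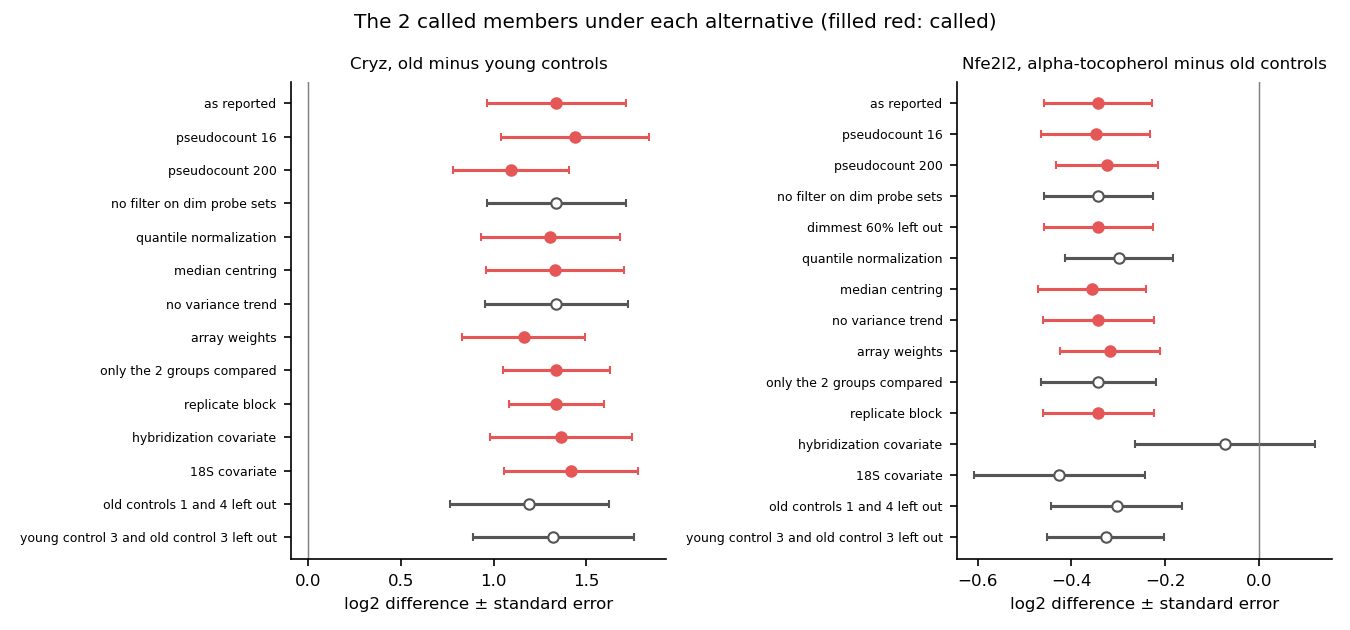
Log2 difference ± SE of Cryz with age (left) and of Nfe2l2 with alpha-tocopherol (right) as reported and under each alternative, filled red where the adjusted p was below 0.05. Cryz stays between 1.09 and 1.44, while Nfe2l2 runs from -0.43 to -0.07, the latter with the hybridization covariate.

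Gclc and Gclm encode the catalytic and modifier subunits of glutamate-cysteine ligase, the rate-limiting enzyme of glutathione synthesis. For Gclm the young controls had 10.21, 9.98, 9.62, 9.41 and 9.53. The old controls had 9.80, 9.93, 9.82, 9.76 and 10.13, within the young range. The alpha-tocopherol animals had 10.34, 10.13, 10.25, 10.74 and 10.20, with 4 of 5 above the highest old control. The animals fed both tocopherols had 10.42, 10.17, 10.41, 9.94 and 10.13, overlapping the old controls. The difference with alpha-tocopherol was 0.45 ± 0.16 against old controls, just short of the threshold (limma adjusted p = 0.0563, 95% interval 0.10 to 0.79). Against young controls Gclm rose by 0.58 ± 0.16 with alpha-tocopherol (limma adjusted p = 0.0196), the only call among the 7 genes in that comparison, where 15.6% of all probe sets were called. With both tocopherols it was 0.32 ± 0.16 against old and 0.46 ± 0.16 against young controls (limma adjusted p = 0.243 and 0.103). The difference between the supplements was -0.12 ± 0.16 (limma adjusted p = 0.765), and with age 0.14 ± 0.16 (limma adjusted p = 0.747).

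The Gclm values near the threshold changed side with small changes in the arrays used. The difference of alpha-tocopherol from old controls was called without young control 1 (0.45, limma adjusted p = 0.0439). The call against young controls was lost without young control 4 or 5 or alpha-tocopherol animal 4, with differences of 0.48 to 0.53 and limma adjusted p of 0.0512 to 0.0604, and with only the 2 groups compared (0.58 ± 0.19, limma adjusted p = 0.0644). The difference of both tocopherols from young controls was called without young control 1, at 0.58 (limma adjusted p = 0.0494). With the hybridization or 18S covariate the difference from old controls was 0.34 ± 0.29 or 0.34 ± 0.26, and that from young controls 0.49 ± 0.27 or 0.47 ± 0.28, none of them called (limma adjusted p = 0.375 to 0.576).

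Gclc moved less evenly. Its young controls lay at 8.99 to 9.71, its old controls at 9.5 to 9.99 and those fed both tocopherols at 9.43 to 10.22. The alpha-tocopherol animals had 10.24, 9.10, 8.70, 9.91 and 9.99, so animals 2 and 3 lay below every old control and the other 3 near or above the highest. The difference was 0.30 ± 0.25 with age, -0.17 ± 0.25 with alpha-tocopherol and 0.05 ± 0.25 with both tocopherols (limma adjusted p = 0.594, 0.647 and 0.929). With alpha-tocopherol the Gclm difference was positive and the Gclc difference negative, with neither called. When single arrays were left out the Gclc difference ran from -0.34 to 0.05, so its sign was not settled.

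Gsr encodes glutathione reductase, which returns oxidised glutathione to its reduced form. Its young controls lay at 10.7 to 11.43 and its old controls at 10.57 to 11.27. The alpha-tocopherol animals had 10.56, 11.18, 11.45, 11.60 and 11.49, so animal 1 was the lowest heart of all and 3 of 5 lay above every old control. The animals fed both tocopherols lay at 10.98 to 11.35. The difference was -0.15 ± 0.18 with age, 0.36 ± 0.18 with alpha-tocopherol and 0.33 ± 0.18 with both tocopherols (limma adjusted p = 0.745, 0.167 and 0.291). Without alpha-tocopherol animal 1 the middle value was 0.53 and was called (limma adjusted p = 0.0259).

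**Figure D4:**
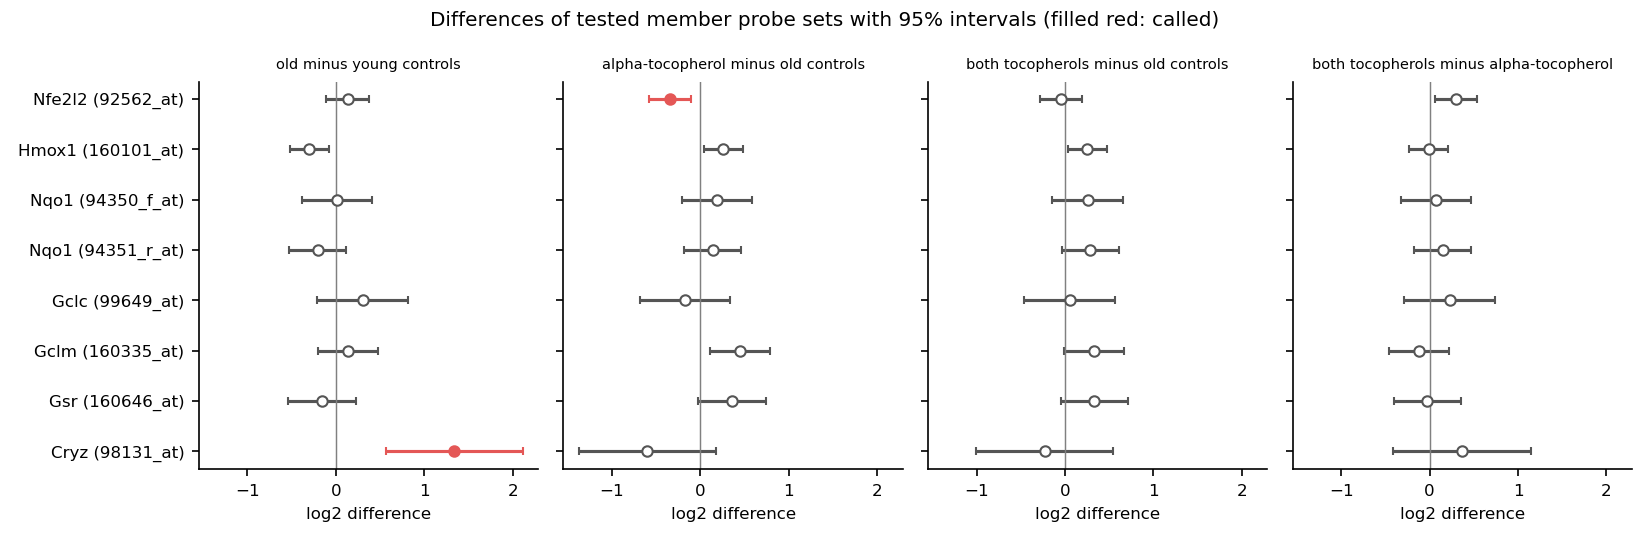
Log2 difference with 95% interval of the 8 tested probe sets in each of 4 comparisons, filled red where the adjusted p was below 0.05. Only Cryz with age and Nfe2l2 with alpha-tocopherol are filled, at 1.34 and -0.34.

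Other genes of the pathway were taken from 5 lists, also chosen with earlier results of these data known. The lists overlap in part and hold 67 tested genes. Of these, 18 were called in at least 1 comparison, all 18 of them with alpha-tocopherol, where 21.7% of all probe sets were called. Among 13 tested regulators and partners of Nrf2, 1 fell with age, 2 rose and 1 fell with alpha-tocopherol, and 1 rose with both tocopherols, where 4.94%, 21.7% and 6.43% of all probe sets were called. The 3 calls of 13 with alpha-tocopherol are near that background. Their median log2 difference was -0.093, 0.082 and 0.078 in these comparisons, beside the medians over all probe sets given above. Sqstm1 encodes p62, the autophagy adaptor that binds Keap1 and frees Nrf2. It fell by 0.90 ± 0.15 with age and rose by 0.59 ± 0.15 with alpha-tocopherol and 0.65 ± 0.15 with both tocopherols (limma adjusted p = 0.000829, 0.00775 and 0.0133). With alpha-tocopherol Jund, an AP-1 subunit, rose by 0.56 ± 0.14, and Dpp3, a peptidase that binds Keap1, fell by 0.90 ± 0.27 (limma adjusted p = 0.00562 and 0.0196). The Dpp3 call was lost without alpha-tocopherol animal 2 or 3, at -0.74 and -0.70 (limma adjusted p = 0.0554 and 0.0665).

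Of 27 tested target genes, 2 fell and none rose with age, 6 rose and 4 fell with alpha-tocopherol, and 2 rose and none fell with both tocopherols. Among all probe sets 4.94%, 21.7% and 6.43% were called, those with alpha-tocopherol being 666 higher and 953 lower. The list's median log2 difference was -0.084, 0.185 and 0.162. Gstm1, a glutathione transferase of the mu class read by a probe set that matches a sequence family, fell by 0.45 ± 0.09 with age. It rose by 0.77 ± 0.09 with alpha-tocopherol and 0.67 ± 0.09 with both tocopherols (limma adjusted p = 0.00578, 1.42e-05 and 0.000315). Aox1, an aldehyde oxidase, fell by 0.77 ± 0.13 with age and rose by 0.53 ± 0.13 with both tocopherols (limma adjusted p = 0.00136 and 0.0214). It also rose with alpha-tocopherol, by 0.51 ± 0.13 (limma adjusted p = 0.00876), a value given after it was seen. The call with both tocopherols was lost without old control 5, at 0.46, or without animal 2 of the group fed both tocopherols, at 0.48 (limma adjusted p = 0.061 and 0.0582). With alpha-tocopherol Ugdh, which makes UDP-glucuronate for conjugation, fell by 0.82 ± 0.17 and Gsta2, an alpha-class glutathione transferase, rose by 0.57 ± 0.15 (limma adjusted p = 0.00187 and 0.00836). Sqstm1, Gstm1 and Aox1 lay lower in old than in young controls and higher in supplemented animals than in the same old controls, which enter all these comparisons.

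Of 17 tested genes of the glutathione cycle, none passed the test with age or with both tocopherols and 2 rose with alpha-tocopherol, a smaller share than the 21.7% of all probe sets. They were Nnt, the mitochondrial transhydrogenase that supplies NADPH, at 0.33 ± 0.09, and Idh2, the mitochondrial NADP-dependent isocitrate dehydrogenase, at 0.29 ± 0.09 (limma adjusted p = 0.0144 and 0.0171). With quantile normalization Idh2 came to 0.10 ± 0.06 and was not called (limma adjusted p = 0.254). The list of quinone and NAD(P)H oxidoreductases held 7 tested genes, Cbr1, Cbr3, Ptgr1, Adh1, Adh5, Cyb5r3 and Mecr. None passed with age or with both tocopherols, where 4.94% and 6.43% of all probe sets were called. With alpha-tocopherol 2 of the 7 fell, beside the same 21.7%. Cbr1, a carbonyl reductase, fell by 1.18 ± 0.28, and Adh5, which reduces S-nitrosoglutathione, by 0.56 ± 0.13 (limma adjusted p = 0.00435 and 0.004). Of 8 genes of heme turnover, Alas1 alone was called with age, with alpha-tocopherol and with both tocopherols. Among all probe sets 4.94%, 21.7% and 6.43% were called in these comparisons. Alas1 makes heme rather than breaking it down, as the first enzyme of its synthesis. It rose by 1.16 ± 0.10 with age and fell by 0.49 ± 0.10 with alpha-tocopherol and 0.63 ± 0.10 with both tocopherols (limma adjusted p = 1.31e-07, 0.0012 and 0.000744). No gene of the 5 lists was called between the supplements.

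The array controls and single arrays bore on these calls as follows. With alpha-tocopherol, 18 listed genes were called, and with the hybridization covariate or with the 18S covariate 17 of the 18 lost the call. Gstm1 kept it in both fits, at 0.74 ± 0.16 and 0.68 ± 0.15 (limma adjusted p = 0.0239 and 0.0226). Of the 17, the difference stayed within 1.5 times its size for 12 with the hybridization covariate and 13 with the 18S covariate, with larger standard errors. Cbr1, for example, came to -1.24 ± 0.49 and -1.08 ± 0.44, and Gsta2 to 0.70 ± 0.26 and 0.50 ± 0.24. The other 5 and 4 shrank further or changed sign. Among them, with the hybridization covariate, Sqstm1 came to 0.07 ± 0.23 (limma adjusted p = 0.909) and Idh2 to -0.01 ± 0.12 (limma adjusted p = 0.985). When single arrays were left out, 14 of the 18 were called each time, and Dpp3, Txn1, Taldo1 and Gstp1 were not. With age, all 4 calls were kept in both fits. With both tocopherols, Gstm1 and Alas1 kept the call in both fits, Sqstm1 lost it with the hybridization covariate (0.48 ± 0.15, limma adjusted p = 0.0711) and Aox1 lost it in each (0.52 and 0.43, limma adjusted p = 0.063 and 0.0648). Without old controls 1 and 4, 1 of 4 calls with age was lost, Gstm1 at -0.42 (limma adjusted p = 0.057). With alpha-tocopherol 7 of 18 were lost, those of Sqstm1, Dpp3, Nnt, Idh2, Txn1, Taldo1 and Gstp1 (limma adjusted p = 0.0628 to 0.211). With both tocopherols 2 of 4 were lost, Sqstm1 at 0.54 and Aox1 at 0.53 (limma adjusted p = 0.0971 and 0.0827). With both tocopherols, 1 of 9 macrophage, 3 of 8 endothelial, 3 of 8 fibroblast and 2 of 4 hepatocyte markers were called lower. Also, 1 fibroblast and 1 skeletal muscle marker were called higher, where 6.43% of all probe sets were called. The hepatocyte sums lay at 10.24 to 11.06 with both tocopherols and 11.9 to 14.33 in old controls. The part of these markers and those given for alpha-tocopherol was not tested.

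**Figure D5:**
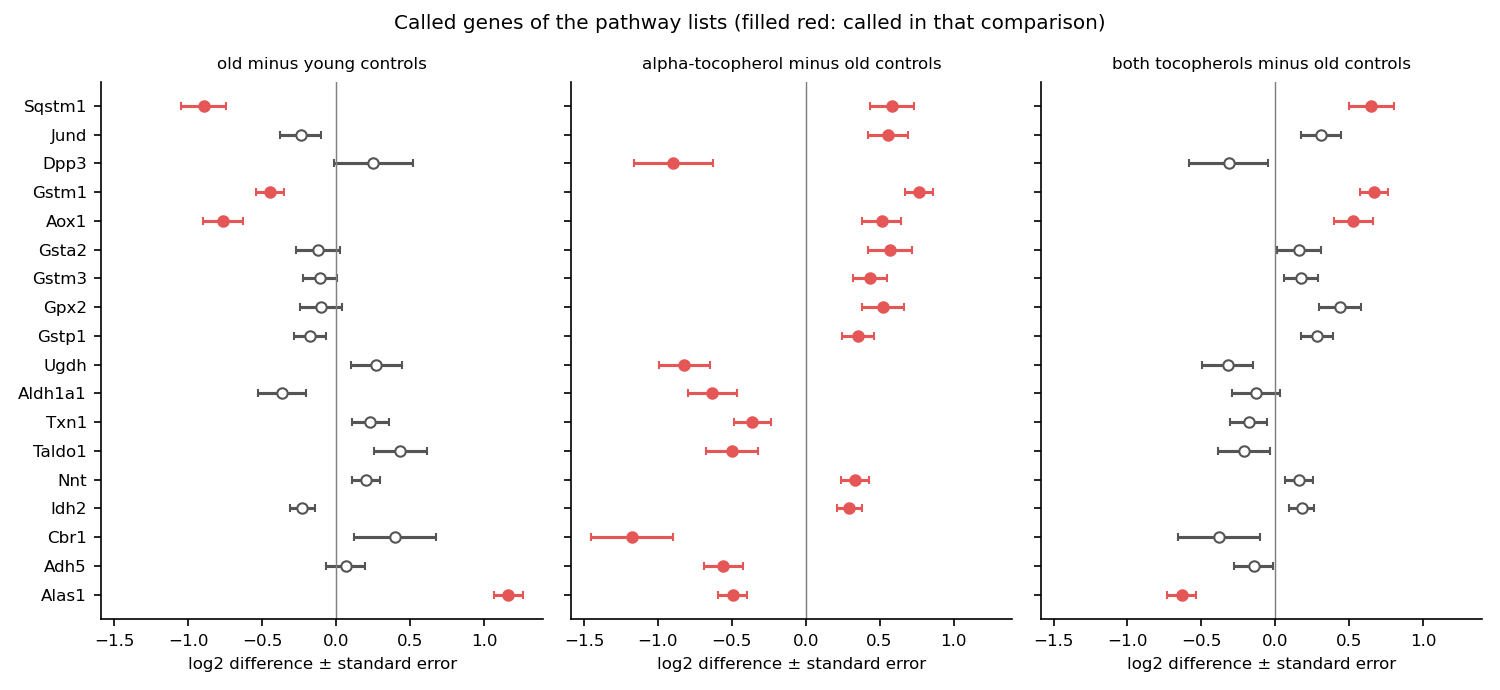
Log2 difference ± SE of the 18 genes of the pathway lists that were called in at least 1 comparison, in the age comparison and in each supplement against old controls, filled red where called. Sqstm1, Gstm1, Aox1 and Alas1 are filled in all 3 panels, and the rest are filled with alpha-tocopherol alone.

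The genes whose levels ran most like those of the called members were found by Pearson correlation over the 20 arrays, which share groups and array handling. For Nfe2l2 they were Slc25a51 (0.781), Ssbp2 (0.751) and Luc7l2 (0.744). After each group's mean was removed these values were 0.758, 0.503 and 0.681. For Cryz they were Ncbp2 (0.815), Sparcl1 (0.79) and Hspa4 (0.773), and 0.79, 0.649 and 0.641 within groups. The correlations describe these arrays and were not tested.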

How the data were processed

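The authors deposited 1 intensity per probe set and array, on a linear scale with the software and scaling not given in the sources used here. Per the labels' protocols, poly(A) RNA was reverse-transcribed from an oligo-dT primer and labelled with biotin during in vitro transcription. No column of the table went unused. Values were taken as log2(intensity + 58), near the 10th percentile of all values, without further normalization, since array medians differed by 0.115 at most. The 66 control probe sets were removed, then the lowest 40% by mean of the remaining 12422, leaving 7453. The model was limma (version 3.58.1, R 4.3.3; group means over 20 arrays, 16 residual degrees of freedom, robust variances with a trend), and p-values were adjusted by Benjamini-Hochberg over all of them. The fit was tested on simulated data. Other statistics used Python 3.11.15 and scipy 1.17.1. The number of arrays limits the precision.

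All member probe sets were described. For the lists, the brightest probe set stood for a gene, and up to 3 called genes per list and comparison were named by adjusted p, with the 3 most alike genes for each member called between the groups of the 4 main comparisons. Members and lists were chosen with earlier results of these data known. Symbols of all 9 probe sets matched RefSeq by gene identifier. No pair of arrays was identical. Alternatives changed the pseudocount, filter, normalization, variance model, weights, samples and covariates.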

Additional observations from a re-analysis of the deposited data

How the results depend on the processing

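Every called difference of a member or listed gene kept its direction under every alternative run, except that of Idh2 with alpha-tocopherol, -0.0067 with the hybridization covariate, and that of Taldo1 with alpha-tocopherol, 0.0671 with the 18S covariate; the cause was not tested. The calls rest on 5 arrays a group, and those of Cryz and Nfe2l2 lie near the threshold. Members called with age numbered 1 as reported and 0 with no filter, with the dimmest 60% left out (Cryz is then not tested), with no variance trend, without old controls 1 and 4, and without young control 3 and old control 3; array weights gave 2, and leaving out 1 array gave 0 to 1. Members called with alpha-tocopherol numbered 1 as reported, 0 with no filter, with only the 2 groups compared, with either covariate and without either of those pairs of arrays, and 2 with the dimmest 60% left out, no variance trend or array weights; leaving out 1 array gave 0 to 2. Probe sets called with age were 731 with array weights and 150 without old controls 1 and 4. With alpha-tocopherol they were 144 and 142 with the hybridization and 18S covariates and 981 without old controls 1 and 4. With both tocopherols they were 858 with array weights, 242 with the hybridization covariate, 162 without old controls 1 and 4, and 263 to 556 without 1 array. Between the supplements, 42 as reported became 11 with no filter, 64 with the dimmest 60% left out, 23 with median centring, 8 with no variance trend, 7 with array weights, 79 without young control 3 and old control 3, 0 with only the 2 groups compared, with either covariate or without old controls 1 and 4, and 0 to 79 without 1 array.

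With the replicate number as a block (replicate block), 347, 1578, 451 and 34 probe sets were called in the 4 comparisons, and 1, 1, 0 and 0 members. The numbers do not pair the arrays: deviations of same-numbered arrays correlated at -0.08 to 0.1, and 2 of 20 arrays correlated best with their own number. With the block, Cryz was called between both tocopherols and young controls, at 1.11 (limma adjusted p = 0.0172).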
